A study of Homo sapiens with 49 samples.

Results

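Chromatin immunoprecipitation followed by sequencing located 15362 narrower H3K4me3 regions that endometrial and breast cancer cells had in common. They were chosen by the deposited H3K4me3 peaks alone. A region was a peak of the Ishikawa list under vehicle that was under 2000 bp wide, lay on chromosomes 1 to 22 or X, and overlapped by at least 1 bp a peak in each of the other 3 H3K4me3 lists. These were 51.9% of the 29594 peaks of that list on those chromosomes. Of the rest, 997 were shared in the same way but 2000 bp or wider (broad shared regions), 10769 were narrower peaks overlapped by neither T-47D list (narrower regions without a T-47D peak), and 2466 met the overlap rule in part. H3K4me3 width and presence were therefore fixed by the choice and are given below as a description. Presence in T-47D was fixed as well, so shares of T-47D proteins at regions with and without a T-47D H3K4me3 peak are set side by side and not tested.

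H3K4me3, histone H3 carrying 3 methyl groups on lysine 4, marks the nucleosomes around the start sites of active and poised genes. TFIID binds such promoters, places RNA polymerase II (RNAPII) at the start site, and has TAF1 as its largest subunit. SIN3A is a scaffold that brings histone deacetylases to promoters, and LSD1 (KDM1A) removes mono- and dimethylation from the same lysine. JUN is a subunit of the AP-1 factor, MAX is the partner that MYC needs to bind the E-box, and RARA is retinoic acid receptor alpha. H3K27me3 is the repressive mark written by Polycomb, and H3K4me1 is typical of enhancers and of the flanks of promoters.

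The lines were Ishikawa, derived from an adenocarcinoma of the endometrium, and T-47D, derived from a carcinoma of the breast, and each was given vehicle (DMSO) or 10 nM 17β-estradiol (E2), for 1 h before immunoprecipitation of proteins and 8 h before that of histone marks. Both treatments followed growth in hormone-depleted medium. SIN3A was profiled instead in stripped and in full media, with no E2 arm. Each line is a single cell line, and every group held 1 library except T-47D RNAPII, with 2 libraries per treatment. RNAPII in Ishikawa was not analysed here. The line labels were checked against H3K4me3 at marker start sites. KRT8 and CDH1 were marked in all 4 lists, EPCAM in all but T-47D E2 and KRT18 in the Ishikawa lists alone. GATA3 and SPDEF were marked in the T-47D lists alone and PAX8, EMX2, HOXA10 and HOXA11 in the Ishikawa lists alone, while SOX17 was marked in Ishikawa E2 alone. TRPS1, PGR and ESR1 were marked in all 4 lists and TFAP2B in none. Of 8 genes of leukocytes, fibroblasts and endothelium, 7 had no peak in any list and COL1A1 had one in both Ishikawa lists. The lists held 2 to 46282 peaks each. They give peaks and not reads, so sequencing depth is unknown and a short list cannot be told apart from less binding. Shares are given with exact Clopper-Pearson 95% intervals, which cover counting error only.

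The sequences below show what kind of DNA lay under these regions. The first set gives the 200 bases before the start site of 4 genes, each the promoter with the given motif, clear of annotated exons, where the lower of the TAF1 fold enrichments of both lines under DMSO was highest. The motifs shown were those of ETS factors (CCGGAAGT), NRF1 (GCATGCGC), YY1 (AAGATGGCG) and the palindrome CTCGCGAG, each searched on both strands. Capitals mark the motif on either strand, and positions are counted from the start site. CPEB4 has the ETS motif at -40, TASP1 overlapping NRF1 motifs at -192 and -190, TXNDC15 the YY1 motif at -86 and -55, and RPS6 the palindrome at -51. CPEB4 encodes a regulator of mRNA translation, TASP1 the protease taspase and RPS6 a protein of the small ribosomal subunit. Sequences are hg19, written 5′ to 3′ on the strand of the gene, with start sites from GENCODE.
CPEB4 promoter, chr5:173315152-173315351, plus strand: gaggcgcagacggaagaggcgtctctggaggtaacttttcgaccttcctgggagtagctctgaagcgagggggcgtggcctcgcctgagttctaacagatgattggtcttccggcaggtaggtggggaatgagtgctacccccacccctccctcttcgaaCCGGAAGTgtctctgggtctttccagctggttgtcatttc
TASP1 promoter, chr20:13619580-13619779, minus strand: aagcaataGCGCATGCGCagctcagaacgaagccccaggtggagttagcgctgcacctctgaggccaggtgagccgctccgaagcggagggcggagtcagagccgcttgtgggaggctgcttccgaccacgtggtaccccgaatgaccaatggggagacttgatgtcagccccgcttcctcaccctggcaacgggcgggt
TXNDC15 promoter, chr5:134209861-134210060, plus strand: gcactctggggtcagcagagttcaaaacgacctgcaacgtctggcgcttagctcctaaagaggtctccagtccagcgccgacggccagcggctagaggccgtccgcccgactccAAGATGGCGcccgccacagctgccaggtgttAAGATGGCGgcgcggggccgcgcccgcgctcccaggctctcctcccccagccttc
RPS6 promoter, chr9:19380235-19380434, minus strand: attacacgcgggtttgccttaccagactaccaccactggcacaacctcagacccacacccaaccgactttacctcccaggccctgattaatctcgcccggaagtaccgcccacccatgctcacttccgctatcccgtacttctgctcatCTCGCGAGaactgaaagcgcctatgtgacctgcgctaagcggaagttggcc

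The second set gives 120 bases centred on the summit of a peak, and shows 3 motifs whose shares at summits are given further on. For each list named, it is the summit in a narrower region with the highest fold enrichment whose window was clear of annotated exons. The lists shown were chosen after their values were seen. The GOT1 summit was the fifth of its list, since 3 higher ones lay on exons and 1 on a chromosome not used for the printed sequences. The JUN windows chosen in this way in Ishikawa DMSO and T-47D DMSO held no AP-1 match and are not printed. The MYC window of T-47D E2 held no CACGTG and the LSD1 window of Ishikawa DMSO no CTACAATTC, and these are not printed either. Capitals mark CCAAT, the motif of the NFY factor, under RARA, the E-box CACGTG under MAX, and the AP-1 motif TGANTCA under JUN. The windows lie at GOT1, encoding a cytosolic aspartate aminotransferase, PXMP4, encoding a peroxisomal membrane protein, NECAP2, encoding an endocytosis protein, EXOSC5, encoding a subunit of the RNA exosome, and in the region of chromosome 18 between DYM-AS1 and SMAD7.
T-47D RARA DMSO summit at GOT1, chr10:101190526-101190645, plus strand: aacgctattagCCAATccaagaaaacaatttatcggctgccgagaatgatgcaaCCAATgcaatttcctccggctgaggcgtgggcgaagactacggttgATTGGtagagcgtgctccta
Ishikawa RARA E2 summit at PXMP4, chr20:32308160-32308279, plus strand: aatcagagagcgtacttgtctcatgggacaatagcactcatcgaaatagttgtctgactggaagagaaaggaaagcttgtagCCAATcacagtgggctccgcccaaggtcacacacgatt
T-47D MAX DMSO summit at NECAP2, chr1:16767068-16767187, plus strand: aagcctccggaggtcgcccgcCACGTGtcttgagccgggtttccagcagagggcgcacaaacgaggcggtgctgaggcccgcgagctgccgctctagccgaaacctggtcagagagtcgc
Ishikawa MAX E2 summit at EXOSC5, chr19:41903286-41903405, plus strand: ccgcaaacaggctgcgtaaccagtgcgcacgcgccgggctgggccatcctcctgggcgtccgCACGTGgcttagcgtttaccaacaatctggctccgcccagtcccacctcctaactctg
Ishikawa JUN E2 summit at chromosome 18, chr18:46548004-46548123, plus strand: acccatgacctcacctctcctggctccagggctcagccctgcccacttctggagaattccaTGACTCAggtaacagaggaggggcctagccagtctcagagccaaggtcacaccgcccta

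The narrower regions were 191 to 1999 bp wide, with a median of 925 bp. Their median fold enrichment over local background was 19.5 in Ishikawa DMSO (quartiles 14.6 and 24.5, highest 73.4) and 21.4 in Ishikawa E2. In T-47D it was 13.1 under DMSO and 10.9 under E2, and the overlapping T-47D peaks were also shorter, with medians of 649 and 597 bp. The broad shared regions had medians of 22.9, 24.8, 15.5 and 12.9 in the same 4 lists. The difference in width between the 2 kinds of region was set by the rule. Within a line the treatments ranked the narrower regions much alike, and between lines less so. Across the 15362 regions, which share library and base composition, Spearman's rho of fold enrichment was 0.82 between Ishikawa DMSO and E2, 0.70 between T-47D DMSO and E2 and 0.30 between the lines under DMSO. At the width limit, the 124 regions of 1950 to 1999 bp had a median fold enrichment of 22.1 and the 131 peaks of 2000 to 2049 bp that met the same overlap rule had 22.2. TAF1 lay on 100% of the former and 98.5% of the latter in Ishikawa, and on 52.4% and 47.3% in T-47D. The regions nearest the limit included the UNK and H3-3B promoter and the RNASEH1 promoter, each 1999 bp wide.

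Many of the regions were pieces of one promoter. Another peak of the same list lay within 1000 bp of 8691 of them (56.6%), and joining such neighbours gave 11734 clusters, of which 6671 were a lone region, 4085 were pairs and 978 held 3 or more peaks. Lone regions had a median width of 1216 bp and regions with a neighbour 749 bp. In 2481 pairs both peaks were narrower shared regions. The gap between them had a median of 164 bp (quartiles 107 and 265), it held an annotated start site in 43.7% of pairs, and a start site lay in the gap or in either flank in 94.4%. The gap, low in H3K4me3, was overlapped by a TAF1 peak of Ishikawa DMSO in 76.8% of pairs, by a T-47D RNAPII peak (DMSO replicate 1) in 90.3% and by T-47D JUN in 70.7%. A TAF1 summit lay inside the gap in 7.94% of pairs. The same gaps were mostly bare of the mark in T-47D, where 81.7% had not 1 base in a DMSO peak and 89.0% not 1 base in an E2 peak, against 25.8% in Ishikawa E2.

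An annotated start site of a protein-coding gene or long non-coding RNA lay inside 64.2% of the narrower regions (63.5 to 65.0) and within 250 bp of 80.4% (79.7 to 81.0). Within 2000 bp the share was 91.5%. The broad shared regions held a start site in 93.8% of cases (92.1 to 95.2) and the narrower regions without a T-47D peak in 15.1% (14.4 to 15.8). Start sites on both strands were inside 13.2% of the narrower shared and 50.5% of the broad shared regions, a difference that goes with their length. When peaks within 1000 bp were joined first, 84.1% of the clusters under 2000 bp held a start site. The narrower regions served many genes. They lay within 250 bp of a start site of 10397 protein-coding genes, 51.8% of the 20090 annotated, and the share of the Ishikawa list that met the rule ran from 42.1% on chromosome 22 to 56.9% on chromosome 14.

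Relative to the start site, the mark was most frequent downstream and dipped just upstream of the site. Over 6029 genes with a narrower region at the start site and no start site on the other strand within 2000 bp, Ishikawa DMSO H3K4me3 peaks covered position +225 at 94.6% of genes, position -125 at 68.1% and position -275 at 75.1%. T-47D showed the same shape with a deeper dip. T-47D DMSO peaks covered +225 at 84.4%, -75 at 23.7% and -325 at 50.7% of genes, and T-47D E2 peaks covered 14.3% at -75. The protein peaks were centred nearer the start site than the dip. Ishikawa TAF1 peaks were most frequent at +25, over 86.0% of genes, where Ishikawa DMSO H3K4me3 was at 85.6%, and covered -125 at 82.4%. T-47D TAF1 peaks covered 29.1% at +25 and 24.3% at -75. TAF1 summits had a median of +29 in Ishikawa and +22 in T-47D. Ishikawa SIN3A summits had a median of +47, T-47D JUN +8, and those of the 4 RNAPII libraries +31 to +36. LSD1 (Ishikawa E2, -34) and MAX (T-47D E2, -53) lay upstream at the median, with quartiles on both sides of the start site, while Ishikawa MAX DMSO summits had a median of +20 and 54.0% of 810 lay downstream. T-47D RARA under DMSO stood furthest upstream among the lists placed in this way. Its median summit was at -104 (quartiles -154 and -63), with 6.56% of its 320 summits downstream. The other RARA lists were not placed.

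**Figure D1:**
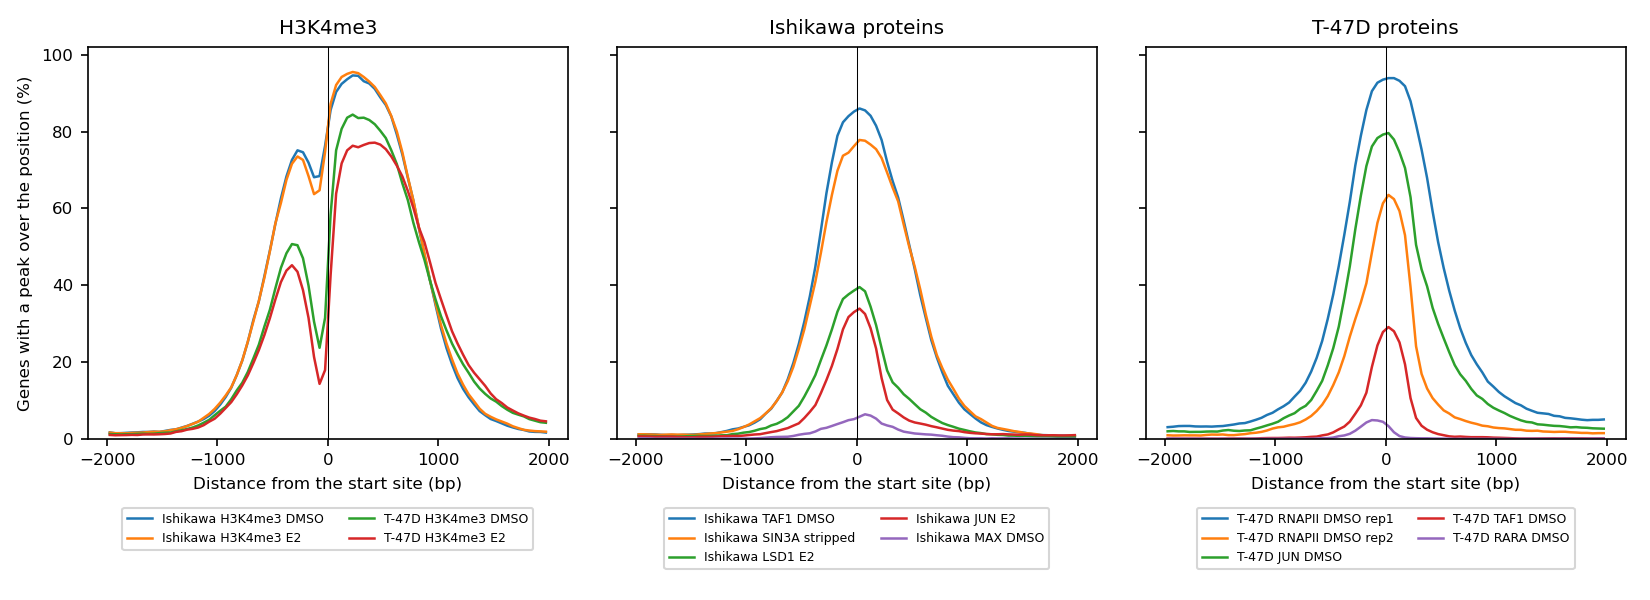
Share of 6029 genes (%) with a deposited peak over each position from 2000 bp before to 2000 bp after the start site, for H3K4me3 in 4 lists (left), Ishikawa proteins (middle) and T-47D proteins (right). H3K4me3 dips just before the start site, to 68.1% in Ishikawa DMSO and 23.7% in T-47D DMSO, and TAF1 is most frequent at +25, over 86.0% of genes in Ishikawa and 29.1% in T-47D.

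In Ishikawa most of the narrower regions carried TAF1 and SIN3A. TAF1 peaks under DMSO overlapped 82.3% of them (81.7 to 82.9), against 66.7% of all peaks of the Ishikawa H3K4me3 list, 98.9% of broad shared regions and 44.2% of narrower regions without a T-47D peak. SIN3A in stripped media overlapped 81.8% (81.2 to 82.4), against 63.9% of all peaks. The pair lay on the same regions: of the 12650 regions with TAF1, 92.9% had SIN3A, and of the 12568 with SIN3A, 93.5% had TAF1. LSD1 under DMSO overlapped 18.3% (17.7 to 19.0) against 21.7% of all peaks, and 97.5% of its 2817 regions also had TAF1. MAX overlapped 10.7% (10.2 to 11.2), close to the 9.56% of all peaks. RARA lay on 106 regions, 0.690% against 0.422%, and JUN on 622, 4.05% against 7.80%. The single region with a MYC peak was the TAF5 promoter, under DMSO and under E2, against 0.0135% and 0.00676% of all peaks. The marks differed in kind from those at regions without a T-47D peak. H3K4me1 overlapped 10.8% of the narrower shared regions (10.3 to 11.3), 28.2% of all peaks and 53.4% of narrower regions without a T-47D peak (52.5 to 54.4), and H3K27me3 under DMSO overlapped 2.71% against 5.95% of all peaks.

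In T-47D the leading proteins at the same regions were RNAPII and JUN. The RNAPII libraries overlapped 91.3% and 58.3% of the regions in DMSO replicates 1 and 2, and 82.5% and 67.1% in E2 replicates 1 and 2, against 66.0%, 37.3%, 57.9% and 43.3% of all peaks. All 4 libraries had a peak at 56.6% of the regions, against 35.8% of all peaks, and none had one at 8.05%, against 32.4%. JUN under DMSO overlapped 79.8% (79.1 to 80.4), against 54.7% of all peaks and 94.0% of broad shared regions. TAF1 overlapped 24.7% (24.0 to 25.4) against 15.0% of all peaks. The other proteins were rarer. RARA lay on 4.59% (4.26 to 4.93) against 2.80%, MYC on 3.09% against 1.89%, MAX on 0.625% against 0.433%, SIN3A in stripped media on 0.247% against 0.152%, and LSD1 on 1 region against 0.00676%. H3K27me3 under DMSO overlapped 27.2% (26.5 to 27.9) against 17.3%, and H3K4me1 1.63% against 2.56%. Of the 4177 regions with this H3K27me3, 87.5% also had RNAPII of DMSO replicate 2, against 58.3% of all the narrower regions. The share over all peaks includes 10769 regions with no T-47D H3K4me3 peak, so higher T-47D shares at the chosen regions follow in part from the choice.

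**Figure D2:**
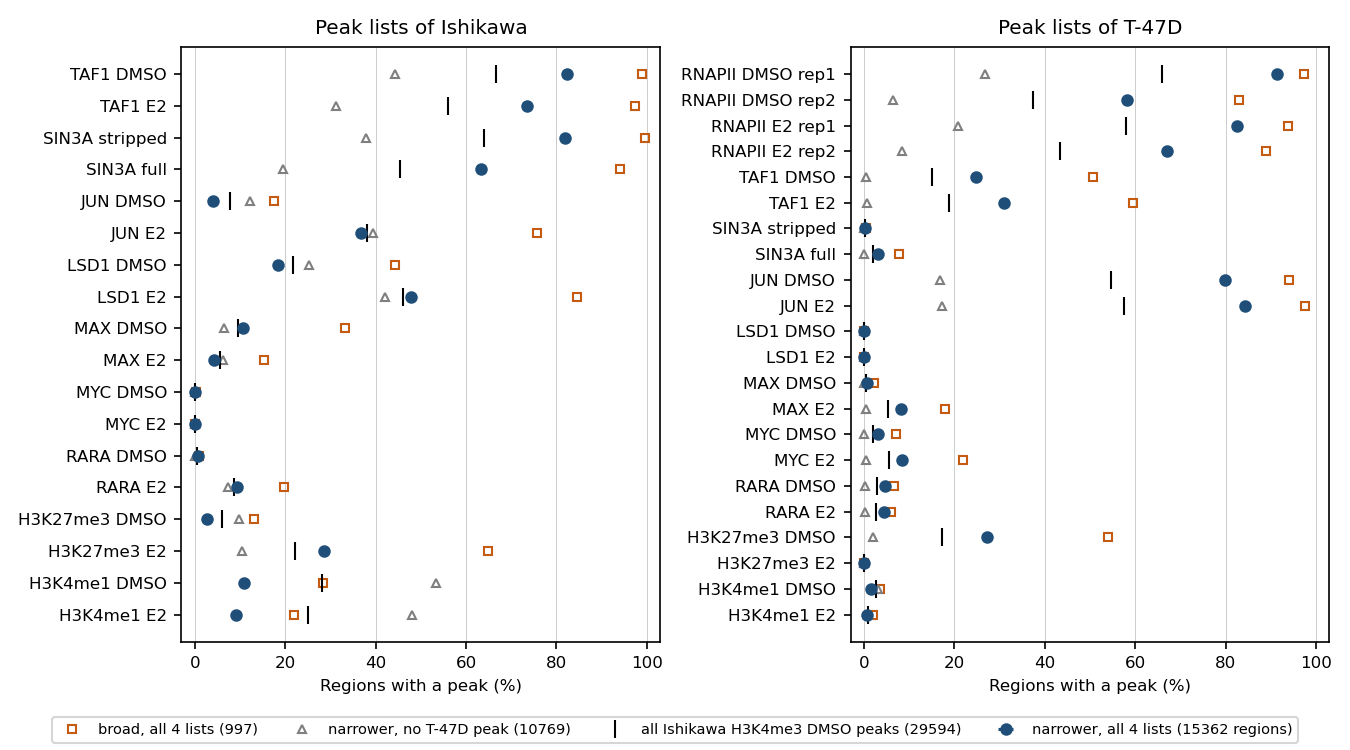
Share of regions (%) overlapped by a peak of each list in Ishikawa (left) and T-47D (right). Filled circles with 95% Clopper-Pearson bars, mostly smaller than the symbol, are the 15362 narrower shared regions, squares the 997 broad shared regions, triangles the 10769 narrower regions without a T-47D peak, and ticks all 29594 peaks. TAF1 and SIN3A lead in Ishikawa (82.3% and 81.8%) and RNAPII and JUN in T-47D.

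The lines differed in which proteins were listed at a shared promoter, and the list lengths differed with them. Under DMSO or stripped media the median region had 2 of 7 proteins in Ishikawa and 1 of 7, RNAPII aside, in T-47D. None of these 7 proteins, RNAPII aside, overlapped 1290 regions (8.40%) in either line under DMSO or stripped media. These regions had a median width of 422 bp, and 75.1% of them had another H3K4me3 peak within 1000 bp. Of them, 664 (4.32% of the narrower regions) also had no T-47D RNAPII peak in any library. For TAF1 the T-47D regions were nearly a subset of the Ishikawa regions. Of the 3796 regions with T-47D TAF1, 99.0% had Ishikawa TAF1, while 29.7% of the 12650 regions with Ishikawa TAF1 had T-47D TAF1. The lists held 19348 peaks in Ishikawa and 4587 in T-47D. Ishikawa TAF1 fold enrichment had a median of 26.0 (quartiles 19.2 and 34.5) where T-47D TAF1 was also called and 15.3 (10.5 and 22.1) where it was not. Similarly, 105 of the 106 Ishikawa RARA regions under DMSO (99.1%) had T-47D RARA, against 14.9% in the other direction, and 96.9% of Ishikawa JUN regions had T-47D JUN, against 4.92%. MAX ran the other way, with Ishikawa MAX at 85.4% of the 96 T-47D regions and T-47D MAX at 4.99% of the 1642 Ishikawa regions. Under E2 the shares were turned for both RARA and MAX. Both shares of a protein count the same regions in common, so the larger is always that of the line with fewer regions. The order of the list lengths was turned for RARA alone, with 2881 peaks in Ishikawa and 750 in T-47D. For MAX the Ishikawa list was still the longer, with 1999 peaks against 1490. T-47D RARA was then at 42.8% of the 1444 Ishikawa regions and Ishikawa RARA at 91.2% of the 678 T-47D regions, and for MAX the shares were 36.9% of 642 and 18.9% of 1257. MYC and MAX of T-47D E2 coincided in part: 425 regions had both, 32.6% of the MYC regions and 33.8% of the MAX regions.

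E2 was compared with DMSO list by list, since no protein but RNAPII had a replicate and no test was possible. In Ishikawa the JUN, LSD1, RARA and H3K27me3 lists were longer under E2 and so were their counts at the narrower regions. JUN went from 622 to 5652 regions (36.8%, against 38.1% of all peaks) and its list from 3763 to 18310 peaks. A JUN peak under E2 alone was seen at 32.8% of the regions and 30.4% of all peaks, so the share at the regions was near that of the whole list. LSD1 went from 2817 to 7329 regions (47.7% against 46.0%), with a peak under E2 alone at 30.2% against 26.5%, and its list from 8613 to 18382 peaks. RARA went from 106 to 1444 regions (9.40% against 8.74%), with E2 alone at 8.71% against 8.32%, and its list from 136 to 2881 peaks. All 106 RARA regions of DMSO had a RARA peak under E2, with a median fold enrichment of 11.8 under DMSO and 25.6 under E2. H3K27me3 went from 416 to 4397 regions (28.6% against 22.2%), with E2 alone at 26.7% against 19.2%, and its list from 2193 to 6989 peaks. Of the 4397 regions with H3K27me3 under E2, 95.4% also had an Ishikawa TAF1 peak under E2, against 73.4% of all the narrower regions. The H3K27me3 peaks of E2 at the regions had a median width of 328 bp. At the 6029 genes placed above, their summits had a median of +24, near those of the proteins.

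TAF1, SIN3A and MAX of Ishikawa had fewer regions in the second library. TAF1 went from 12650 to 11278 regions (73.4% against 56.1%), with a peak under DMSO alone at 9.41% against 11.5% of all peaks. The median log2 ratio of TAF1 fold enrichment, E2 over DMSO, was -0.40 over the 11204 regions with both. SIN3A went from 12568 regions in stripped to 9724 in full media (63.3% against 45.4%), with stripped media alone at 18.9% against 19.5%. MAX went from 1642 to 642 regions (4.18% against 5.48%), with DMSO alone at 7.27% against 5.55%. The TAF1 list went from 19348 to 16552 peaks, the SIN3A list from 20624 to 16458 and the MAX list from 3365 to 1999.

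In T-47D the MAX, MYC, TAF1 and SIN3A lists were longer in the second library. MAX went from 96 to 1257 regions (8.18% against 5.20%), with E2 alone at 7.74% against 4.89%, and MYC from 474 to 1302 (8.48% against 5.45%), with E2 alone at 7.01% against 4.55%. For MYC, 225 of the 474 regions of DMSO also had a peak under E2. TAF1 went from 3796 to 4752 regions (30.9% against 18.7%), with E2 alone at 8.70% against 5.24%, and SIN3A from 38 in stripped to 477 in full media (3.11% against 1.91%). JUN went from 12257 to 12945 regions (84.3% against 57.6%) while its list went from 28702 to 24883 peaks. RARA went from 705 to 678 regions (4.41% against 2.68%), 542 of them in both, and LSD1 from 1 to 10 (0.0651% against 0.0710%). H3K27me3 went from 4177 regions to 0, against 0.00338% of all peaks, and its list from 6301 peaks with a median width of 317 bp to 99 with a median width of 55 bp. With so short a list the count of 0 does not show that the mark was absent.

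RNAPII was the one target with replicates. The shares of regions overlapped were 91.3% and 58.3% under DMSO and 82.5% and 67.1% under E2, so the treatments overlapped. The means were 74.8% ± 23.3 (SD, n = 2) and 74.8% ± 10.9 (SD, n = 2). The difference of -0.00976 percentage points was smaller than the spread between libraries, with p = 1.00 in a two-sided exact permutation test over the 6 assignments, which cannot give a p below 0.33. The 2 first replicates had the longer lists, 39368 and 46280 peaks against 21287 and 23431, and the higher shares. Median RNAPII fold enrichment at the regions was 51.3 and 13.0 under DMSO and 24.8 and 15.3 under E2.

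Wider regions held more of nearly everything. From regions under 400 bp (1619) to those of 1800 to 1999 bp (638), the share with Ishikawa TAF1 went from 39.3% to 99.2%, with SIN3A from 35.5% to 99.2%, with MAX from 1.48% to 28.2% and with T-47D TAF1 from 5.56% to 51.7%. An annotated start site inside went from 18.0% to 95.8%, while another peak within 1000 bp went from 78.2% to 19.4%. A wider region has more room for a peak, so the shares were also taken in a window of 1000 bp at the centre of each region. In that window Ishikawa TAF1 went from 60.2% to 98.1%, MAX from 3.03% to 25.9% and T-47D TAF1 from 12.3% to 49.5%. Against the broad shared regions, the narrower regions had 16.6 percentage points less Ishikawa TAF1 over whole regions (82.3% and 98.9%) and 11.4 less in the window (86.3% and 97.7%). For Ishikawa MAX the shares were 10.7% and 33.1% over whole regions and 10.9% and 28.4% in the window. H3K4me1 of Ishikawa DMSO was 10.8% and 28.4% over whole regions and 9.83% and 9.13% in the window. The window leaves out the flanks of a broad region, where H3K4me1 may lie, so the part of length in this difference was not tested.

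**Figure D3:**
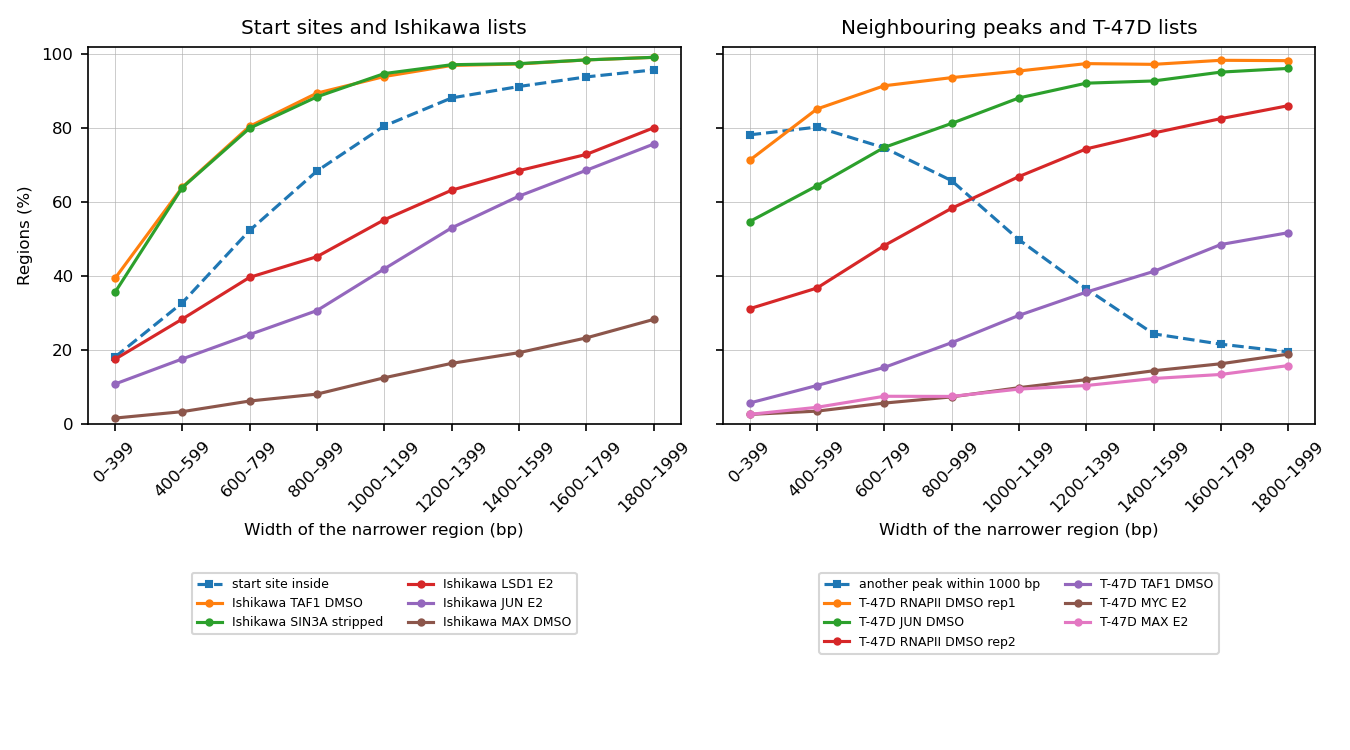
Share of the narrower shared regions (%) by their width in bp, for a start site inside and Ishikawa proteins (left) and for another H3K4me3 peak within 1000 bp and T-47D proteins (right). TAF1 of Ishikawa climbs from 39.3% to 99.2% and neighbouring peaks fall from 78.2% to 19.4% between the shortest and the widest regions.

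The 1301 regions whose nearest annotated start site was over 2000 bp away were shorter, with a median of 621 bp, against 1018 bp for the 12348 within 250 bp. Their median H3K4me3 fold enrichment was 14.8 against 20.4. They still held Ishikawa TAF1 at 62.4% and SIN3A at 65.3%, against 88.7% and 87.5% near a start site, and T-47D RNAPII (DMSO replicate 1) at 79.9% against 95%. H3K4me1 of Ishikawa was at 29.4% against 8.30% and JUN of Ishikawa DMSO at 6.76% against 3.97%, while T-47D TAF1 was at 5.30% against 29.5%. One of them, chr17:38478608-38479024, lies inside RARA and gained peaks of 4 proteins under E2 in Ishikawa.

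The DNA at these promoters was rich in CpG. Of 9906 genes with a narrower and no broad shared region at the start site, 91.3% had a promoter (250 bases before to 49 after the start site) with an observed to expected CpG ratio of at least 0.6 and at least 50% GC, against 65.8% of all 19801 promoters and 22.1% of the 7010 with no Ishikawa H3K4me3 peak. The motif of SP and KLF factors, GGGCGG, was in 78.2%, against 61.5% and 31.5%. The ETS motif CCGGAAGT was in 10.1%, against 6.18% of all and 0.842% of promoters without the mark. The NRF1 motif GCATGCGC was in 6.46%, 4.25% and 1.26%, and the YY1 motif AAGATGGCG in 4.60%, 2.86% and 0.328%. The YY1 motif lay mostly downstream of the start site, with 76.0% of its matches there and a median of +15. ETS motifs had a median of -28 and CCAAT -95. The TXNDC15 matches printed above lie upstream, since the printed promoters hold only bases before the start site. TATAAA ran the other way, with 3.86% of the marked promoters, 9.65% of all and 19.4% of those without the mark, as did TGANTCA with 3.10%, 5.41% and 9.23%. CCAAT was alike in the 3 groups, at 36.8%, 36% and 36.6%. Promoters of broad shared regions were near those of narrower ones, with the ETS motif in 11.8% and the YY1 motif in 6.57% of 1141. GGGCGG was in 76.9% of them, and 93.2% met the CpG and GC limits. At other Ishikawa H3K4me3 peaks, GGGCGG was in 77.3% of 1744 promoters, so it was not particular to the narrower shared regions. Of these 1744, 78.8% met the CpG and GC limits. CCAAT was in 29.4% of them, the ETS motif in 1.83% and the YY1 motif in 0.688%. A match describes letters and not a bound site, and the lack of one says only that these letters are not in the window.

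Among the marked promoters, those with Ishikawa TAF1 under DMSO had the ETS motif in 11% of 9064 and those without it in 0.356% of 842. The YY1 motif was in 4.98% and 0.594%. The ETS split was not particular to TAF1. For T-47D RNAPII (DMSO replicate 1) the ETS motif was in 10.5% of promoters with a peak and 0.508% of those without. For Ishikawa SIN3A in stripped media the shares were 11.2% and 1.60%, and for T-47D JUN under DMSO 11.3% and 1.09%. In T-47D the YY1 motif was in 7.89% of 3473 promoters with TAF1 and 2.83% of 6433 without. LSD1 under DMSO went with the ZNF143 motif CTACAATTC, found in 2.53% of 2052 promoters with LSD1 and 0.102% of 7854 without. JUN summits seldom lay on an AP-1 motif. Within 100 bases on either side of the summit TGANTCA was found at 8.58% of 571 Ishikawa DMSO summits, 4.82% of 5476 Ishikawa E2 summits and 2.57% of 11192 T-47D DMSO summits. The share was 2.29% at H3K4me3 summits and 2.57% at TAF1 summits of Ishikawa DMSO, so T-47D JUN had no higher share than TAF1. Of the fifth of Ishikawa E2 summits with the highest fold enrichment 11.5% had it (9.67 to 13.5), the chromosome 18 sequence printed above among them.

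RARA stood on CCAAT. Of 637 marked promoters with T-47D RARA under DMSO, 87.9% held CCAAT, against 33.3% of the 9269 without. In Ishikawa the shares were 100% of 106 and 36.1% under DMSO, and 79.2% of 1237 and 30.7% under E2. At the summits, CCAAT was within 100 bases at 81.2% of 367 T-47D DMSO summits (76.8 to 85.1), 84.0% of 325 T-47D E2 summits and 67.6% of 873 Ishikawa E2 summits (64.4 to 70.7), against 17.4% of 11037 Ishikawa TAF1 summits. The nearest CCAAT was a median of 17 bp from the RARA summit in T-47D DMSO and in Ishikawa E2, and 60 bp from the TAF1 summit. The GOT1 window printed above has 3 matches. Of the Ishikawa E2 summits that overlapped a T-47D E2 RARA peak 88.4% had CCAAT, and of the others 57.6%.

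MAX summits held the E-box CACGTG to different degrees. It was at 87.5% of 80 T-47D DMSO summits (78.2 to 93.8), 26.9% of 1006 T-47D E2 summits (24.2 to 29.8), 33.2% of 1677 Ishikawa DMSO summits and 46.8% of 573 Ishikawa E2 summits, against 5.99% of Ishikawa TAF1 summits. SIN3A summits of T-47D in full media had it at 23% of 478 (19.3 to 27.1), an interval that overlaps that of T-47D MAX E2. The longer list had the lower share in each line. In T-47D E2 the summits overlapped by a MAX peak of DMSO had it at 81.5% of 54 and the others at 23.8% of 952. MYC summits of T-47D had it at 7.47% of 442 under DMSO and 7.80% of 1230 under E2 (6.37 to 9.45), and 11.4% of the 246 E2 summits with the highest fold enrichment (7.70 to 16.0). Promoters with a MYC peak held it in 17.4% of 333 under DMSO and 13.8% of 862 under E2, against 10.3% of those without in each case.

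**Figure D4:**
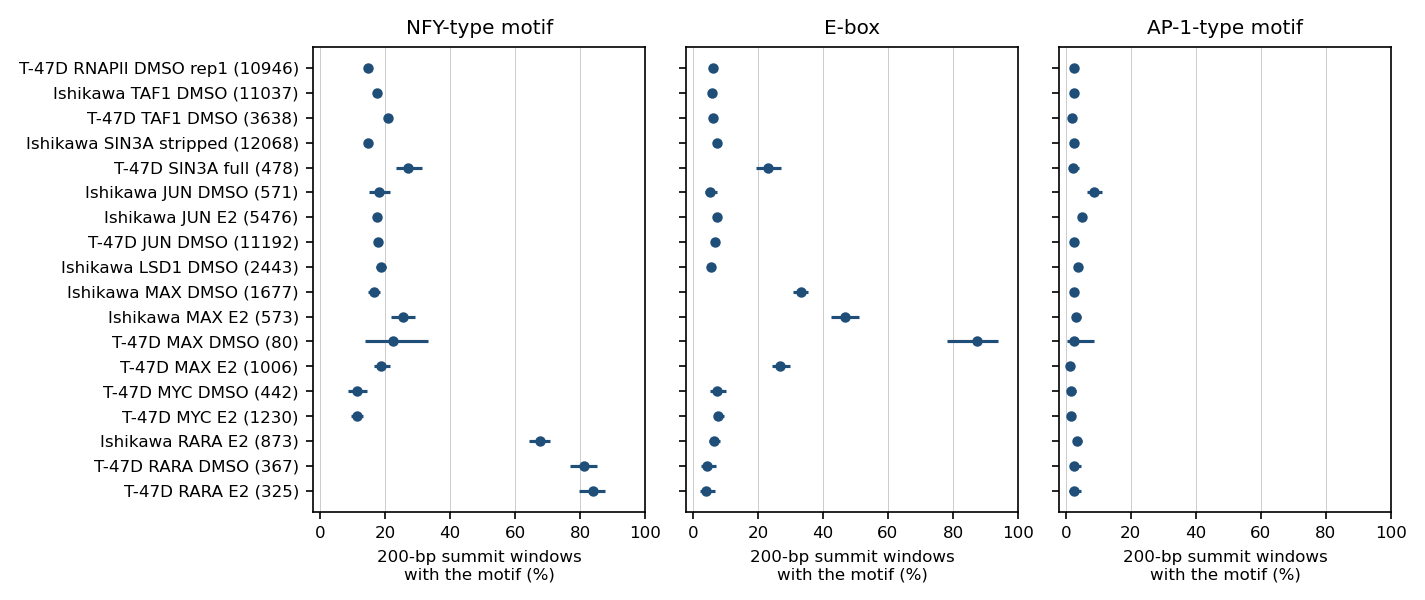
Share of summits in the narrower regions (%) with the CCAAT motif of NFY (left), the E-box (middle) and the AP-1 motif (right) within 100 bases, for the lists shown with their number of summits in parentheses and 95% Clopper-Pearson bars. RARA summits stand apart for CCAAT (67.6% to 84.0%) and MAX summits hold the E-box at 26.9% to 87.5%, while no list exceeds 8.58% for AP-1.

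Genes of general cell function were at narrower regions more often than developmental genes were. Each gene was counted by the region within 250 bp of its start sites, at a narrower shared region and no broad one for 51.1% of all 20090 protein-coding genes. Broad shared regions were at 6.05% of all these genes. The gene lists were drawn up with earlier results known and carry no test. Narrower regions marked 69 of 77 genes of the respiratory chain (89.6%), 33 of 37 tRNA synthetases (89.2%), 68 of 79 general transcription factors and Mediator subunits (86.1%), 67 of 78 replication and repair genes (85.9%) and 50 of 59 spliceosome genes (84.7%). Cytosolic ribosomal proteins were at 61 of 79 (77.2%), with another 17 at broad regions, and the C2H2 zinc finger genes, a family of DNA-binding proteins, at 407 of 554 (73.5%). Developmental transcription factors were at 44 of 174 (25.3%), histone genes used in S phase at 15 of 63 (23.8%) and olfactory receptors, not used by either cell type, at 0 of 399. Histone genes are near-identical copies and reads with more than 1 placement were dropped, so their counts are uncertain.

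Genes known to respond to estrogen were divided. Of all protein-coding genes, 51.1% were at a narrower shared region and no broad one, 6.05% at a broad one and 34.2% at no Ishikawa H3K4me3 peak. Of 21 estrogen-induced genes 10 were at a narrower shared region (among them CA12, CCND1, CTSD, KRT19, PEG10, RARA, RET, SGK3 and XBP1), 5 at a broad one (MYB, MYC, PGR, STC2 and TGFA) and 6 at no Ishikawa H3K4me3 peak (AREG, GREB1, IGFBP4, PDZK1, TFF1 and TFF3). Of 10 immediate early or AP-1 genes, ATF3, EGR1, FOSL2 and JUND were at narrower regions, and FOS, FOSB, IER2, JUN and JUNB at broad ones. FOSL1 was at another Ishikawa H3K4me3 peak, and FOSB also had a narrower region of 751 bp. Of the genes that encode the proteins profiled, KDM1A, MAX, POLR2A, RARA, SIN3A and TAF1 were at narrower regions and JUN and MYC at broad ones.

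The lists also differed in TAF1 of T-47D. It lay on the narrower regions of 96.7% of the cytosolic ribosomal proteins, 65.0% of the proteasome, 63.8% of the respiratory chain, 26.9% of replication and repair genes and 31.9% of the zinc finger genes, against 37% of all genes at such regions. Ishikawa TAF1 lay on at least 95.3% of the regions of each of these lists, against 92.6% of all. Ishikawa JUN under E2 lay on 100% of the ribosomal protein regions, 38.1% of the zinc finger regions and 47.9% of all. The ribosomal protein regions were wide, with a median of 1627 bp for the widest region per gene against 1170 bp over all genes, and width goes with each protein as described above.

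**Figure D5:**
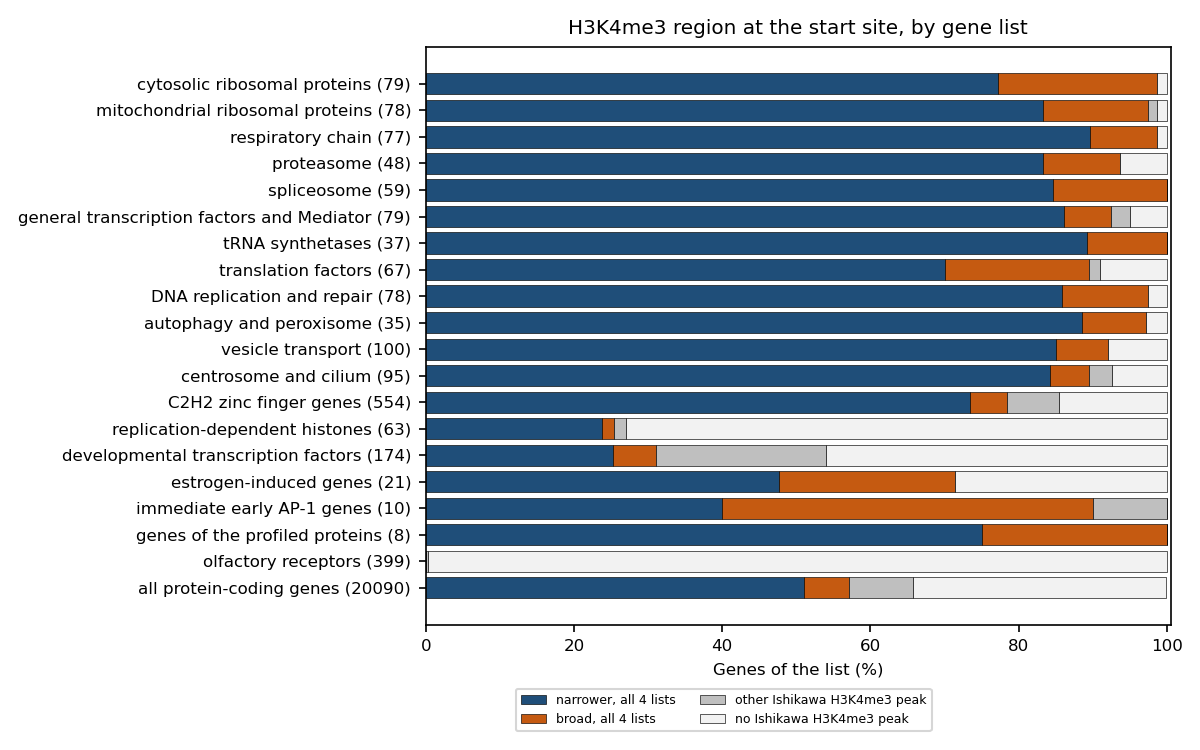
Share of the genes of each list (%, number of genes in parentheses) whose start site was within 250 bp of a narrower shared region, a broad shared region, another Ishikawa H3K4me3 DMSO peak, or none. Lists of general cell function reach 70.1% to 89.6% at narrower regions, against 51.1% of all protein-coding genes, 25.3% of developmental factors and 0 of 399 olfactory receptors.

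The regions that held the most proteins in each line were promoters. The TAF5 promoter (chr10:105127211-105128786), of a TFIID subunit, had 6 proteins in Ishikawa under DMSO or stripped media, with TAF1 at a fold enrichment of 68.0 there and 24.1 in T-47D. Its H3K4me3 fold enrichment was 30 and 21.9 in Ishikawa DMSO and E2, and 11.4 and 6.67 in T-47D. GOT1 and ASF1B, a histone chaperone, had 6 proteins each, with RARA in both lines. In T-47D the KIF18B promoter, of a mitotic kinesin, and the PGK1 promoter, of a glycolytic enzyme, had 5 each. PGK1 carried the highest MYC fold enrichment of T-47D E2, 48.7, and the highest LSD1 of T-47D, 18.8 under DMSO and 17.5 under E2. Over both lines TFRC, encoding the transferrin receptor, ATAD2, a bromodomain ATPase, and MCCC1, a subunit of a mitochondrial carboxylase, had 9 proteins each. MAX or MYC was among the proteins of T-47D at each of the 3.

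RNAPII was highest, by the lowest of its 4 libraries, at the promoter shared by RPL15 and NKIRAS1 (chr3:23957818-23959766). The fold enrichments there were 114 and 47.4 under DMSO and 51.4 and 54.7 under E2, so the treatments overlapped. GADD45B, a stress-response gene, had 110 and 42.5 under DMSO and 55.9 and 39.7 under E2, and C12orf57 50.5 and 39.3 under DMSO and 44.6 and 40.6 under E2. In each case the highest value was that of DMSO replicate 1, the library with the highest median. The highest single value, 130 in that library, was at SQSTM1, an autophagy receptor.

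Single proteins peaked at other genes. RPS15 had the highest JUN of T-47D, 66.1 under DMSO and 90.7 under E2, and the highest TAF1 of T-47D E2, 44.4. The highest SIN3A of Ishikawa was at CCNG2 (140, stripped media), encoding a cyclin, and at TICRR (57.8, full media), a replication initiation gene. LSD1 of Ishikawa was highest at CALCOCO1, with 54.6 under DMSO and 66.1 under E2. RARA was highest at PXMP4 in Ishikawa E2, at 70.6, where H3K4me3 was also high at 60 and 66.3 in Ishikawa and 16.7 and 10.7 in T-47D. MAX was highest at NECAP2 in T-47D DMSO (14.9), EPOP in T-47D E2 (33.0), EXOSC5 and BCKDHA in Ishikawa E2 (25.1), and 18840 bp from CORO2B in Ishikawa DMSO (24.3). The highest JUN of Ishikawa E2, 74.9, belonged to a peak with its summit outside the region it overlapped, which lies inside DOK7 (chr4:3465369-3466290) and at which no protein was listed in either line under DMSO, and no RNAPII in T-47D.

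Peaks of several proteins appeared together under E2 at few regions, among the 6 proteins profiled with E2 in both lines. In Ishikawa 5 regions, the RARA region on chromosome 17 and the CD2BP2 and STAT2 promoters among them, gained a peak of 4 proteins that was not listed under DMSO (0.0325%, against 0.0439% of all peaks). Gains of 3 were at 297 regions (1.93% against 1.63%) and of none at 7295 (47.5% against 50.4%), so the shares were near those of the whole list. The T-47D regions gained at most 3, at 50 regions (0.325% against 0.203%), among them the promoters of ANGEL1, GTF2I, encoding a general transcription factor, and ZNF202, and 11034 gained none (71.8% against 80.3%). CD2BP2, encoding a splicing protein, and STAT2, an interferon signalling factor, had TAF1 and SIN3A alone among the Ishikawa proteins under DMSO or stripped media before these gains.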

How the data were processed

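The series held 49 samples. The 45 with a file were used, and the 4 input samples were not analysed here. Each file was a peak list called by the authors in 1 library. The deposited columns used were the peak position, the summit, the fold enrichment over local background (a ratio), the −log10 p-value and the −log10 q-value, and the deposited score was 10 times the −log10 p. According to the submitters' processing notes, Bowtie 1.1.2, MACS2 2.1.0.20140616 and hg19 were used, and by the study's methods reads with more than 1 placement were dropped. No list had a peak past a GRCh37 chromosome end (0 of 45). The lists held 2 to 46282 peaks and no read counts, so depth is unknown.

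A region counted as overlapped with 1 bp in common. Start sites were taken from GENCODE 44 lifted to GRCh37, promoters and summit windows from that genome, and motifs were matched on both strands. Overlaps were computed in Python 3.11.15 (numpy 2.4.6, pandas 2.3.3, scipy 1.17.1, matplotlib 3.10.9) and checked on simulated data with known answers. They were also checked against bedtools 2.31.1 on the Ishikawa H3K4me3 and TAF1 lists under DMSO. Shares carry exact Clopper-Pearson 95% intervals. The only test was the exact permutation test of the RNAPII shares, 1 value per library. Whether replicates were separate cultures is not stated, so its p measures the spread between libraries, which may be technical. Fold enrichments are the authors' peak values and were not rescaled between libraries.

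Named regions were those with the most proteins in each line and in both, the highest fold enrichment of each protein, the highest RNAPII by the lowest library, those nearest the width limit, those that gained most proteins under E2, and genes of fixed lists. A few regions and genes that met these rules are not reported here. The members, the lists and the motifs were chosen with earlier results of these data known. The alternatives tried were a width limit of 1500 bp, a reciprocal overlap of 50%, the T-47D DMSO list as base, joined neighbours, other start site sets, summits inside the region, peaks with −log10 p of 20 or more, a 1000 bp window, and, for RNAPII, leaving out each library and a replicate block.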

Additional observations from a re-analysis of the deposited data

Results flagged for a closer look

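For 4 targets the share of narrower shared regions with a peak moved in opposite directions in the 2 lines, with 1 library per line and treatment, so the differences between lines were not tested. TAF1, from DMSO to E2, changed by -8.93 percentage points in Ishikawa and by 6.22 in T-47D. SIN3A, from stripped to full media, changed by -18.5 points in Ishikawa and by 2.86 in T-47D. MAX, from DMSO to E2, changed by -6.51 points in Ishikawa and by 7.56 in T-47D. H3K27me3, from DMSO to E2, changed by 25.9 points in Ishikawa and by -27.2 in T-47D, where the E2 list held 99 peaks against 6301 under DMSO. In each of the 8 cases the length of the whole list moved in the same direction as the share, and the part of list length in these differences was not tested.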

How the results depend on the processing

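The number of narrower shared regions was 8510 with a reciprocal overlap of 50% and 9970 with neighbours joined. The share with a start site inside was 57.1% with protein-coding genes alone, 80.4% within 250 bp and 84.1% with neighbours joined, the last chosen after seeing the data. With the summit required inside the region, the shares were 68.8% for Ishikawa TAF1, 72.7% for Ishikawa SIN3A, 23.2% for T-47D TAF1, 67.4% for T-47D JUN and 2.38% for T-47D RARA. With −log10 p of 20 or more they were 79.3%, 76.1%, 19.4%, 76.2% and 4.0%, and 5.01% for Ishikawa MAX. In the 1000 bp window they were 86.3%, 85.6%, 26.4% and 83.3% for the first 4. Under 1500 bp they were 79.6%, 78.9%, 20.8% and 77.2%, and 8.41% for MAX. With neighbours joined they were 87.1%, 87.2%, 29.7% and 85.4%, and 13.2% for MAX. From the T-47D DMSO list they were 81.2%, 80.8%, 23%, 76.8% and 3.42%, and 9.29% for MAX. The narrower minus broad difference in the window was -17.4 points for Ishikawa MAX, -11.4 for Ishikawa TAF1, -12.9 for Ishikawa SIN3A, -18.7 for T-47D TAF1 and -8.05 for T-47D JUN, each in the same direction as over whole regions. Over the other 35 lists, 173 values moved beyond their counting interval and 72 did not. The cause was not tested.

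The RNAPII difference, E2 minus DMSO, ran from -16.5 to 16.5 points when 1 library was left out, -16.5 without DMSO replicate 2 and 16.5 without DMSO replicate 1, and was 7.73 without E2 replicate 2. It was 4.38 with summits (p = 0.667, exact permutation test) and 0.765 in the window, so its sign is not fixed by these libraries. With the replicate block it was -0.00976 points (exact p = 1.00, smallest possible 0.5), from differences of -8.74 and 8.72 within the pairs. The deviations of same-numbered libraries had r = 0.43 over the regions, but with 2 pairs the numbers are not shown to pair the samples. List lengths and the lack of read counts limit what these shares can show.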
